A study of Rattus norvegicus with 52 samples.

Results

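Luminal epithelial cells of ACI rats were compared with luminal cells of Brown Norway (BN) rats in 6 RNA-seq libraries, out of 52 samples of the series and 48 RNA libraries. The members were chosen by their labels alone, as the luminal count files of the 17β-estradiol (E2) experiment, and comprised 4 ACI and 2 BN libraries. The groups were 2 control ACI, 2 E2-treated ACI, 1 control BN and 1 E2-treated BN library, all from mammary glands of females whose age the labels do not give. By the study's methods, implants were placed surgically in ACI and BN rats 9 weeks old. Those of the E2 rats released the hormone continuously, and those of the control rats were empty. Each ACI title carried 1 rat number and each BN title 2 rat numbers, and the study's methods give no deletion or transgene in either purchased strain. Cells were sorted by flow cytometry, with CD24 and CD29 separating luminal from basal cells, CD31 and CD45 marking endothelial and blood cells, and CD49b and the lectin PNA marking luminal progenitors. Values below are read counts scaled to library size by the TMM method and written as CPM, and 6 values in a row stand for ACI control 1, ACI control 2, ACI E2 1, ACI E2 2, BN control and BN E2.

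ACI is an inbred strain whose females develop mammary tumors under prolonged E2, whereas BN females resist them, so the comparison asks how the same cell layer differs between a susceptible and a resistant background. The luminal layer lines the milk ducts and holds cells that carry estrogen and progesterone receptors and pass hormone signals on by secreted factors, together with receptor-poor progenitors that give rise to the milk-producing alveoli. Genes of innate defence are part of the normal program of the progenitors and of alveolar cells, since milk and ductal fluid carry antibacterial proteins. All nucleated cells display peptides on class I molecules of the major histocompatibility complex, which in the rat is called RT1. RT1-A genes encode the classical class I molecules, the RT1-CE genes encode further class I molecules of another part of the complex, and the number and sequence of class I genes vary between inbred strains.

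The 6 libraries held 13659389 to 25280421 counts on genes. The library ACI E2 1 stood apart from the others. It had the lowest depth and 9184 genes with a count, against 10011 to 12836 in the other 5 libraries. Its log2 CPM correlated with theirs at 0.611 to 0.633 across genes, against 0.770 to 0.890 among the other pairs. The BN control library also differed. In it 2798 tested genes had no count, against 719 to 1936 in the others apart from ACI E2 1 (3724). As the only BN control, it bears on every strain difference below. The summed level of the 11 tested fibroblast markers was 6119 CPM in ACI E2 1, 64.1 to 1010 in the other ACI libraries and 1423 and 164 in the BN libraries, and that of the 18 basal markers was 885 to 3939 in ACI and 3708 and 2349 in BN. The luminal keratin Krt8 was abundant in all 6 libraries (2464 to 10068 CPM) and Epcam lay at 1191 to 4557 CPM, while the pan-leukocyte gene Ptprc reached no more than 1.5 CPM. Many calls and medians that changed without ACI E2 1 are given beside the results, but not all.

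No gene separated the strains after adjustment over the 12670 genes tested (edgeR's quasi-likelihood test with treatment as a term and Benjamini-Hochberg adjustment, 0% called), and the lowest adjusted p was 0.528, for Lcn2. Without ACI E2 1 the unadjusted calls were 530 higher in ACI and 307 higher in BN. With all libraries, at an unadjusted p under 0.05, 511 genes differed, of which 290 (2.29%) were higher in ACI and 221 (1.74%) higher in BN, fewer together than the share of 5% that the threshold itself allows. DESeq2 called 399 genes and limma voom 1 at an adjusted p under 0.05. The lowest ACI library lay above both BN libraries in 855 genes (6.75%), and the highest ACI library lay below both in 860 (6.79%). Below, "p under 0.05" means the unadjusted p of the edgeR fit, the adjusted p of the genes described lay between 0.528 and 1, and the shares above are the background for each count. In sorted bulk cells, fewer cells of a type and less RNA per cell cannot be told apart.

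RT1 class I genes held strain differences in both directions. Of 48 RT1 genes in the files 36 passed the filter on low counts, 7 of these (19.4%) were higher in ACI and 3 (8.33%) higher in BN at p under 0.05, and the strains did not overlap in 15 and 4 of them. RT1-A1, RT1-A2 and RT1-S3 were the genes higher in BN. RT1-A3, the remaining tested RT1-A gene, overlapped between strains, at 95.3 to 141 CPM in ACI against 103 and 63.6 CPM in BN (log2 fold change 0.48, SE 0.44). The RT1-CE genes from CE2 to CE6, RT1-CE15 and RT1-O1 were the genes higher in ACI. The median log2 fold change of the 36 genes was 0.85, against 0.08 over all genes tested.

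The upstream sequences of 3 of these genes show how alike the copies are. The 250 bases before the RefSeq start are printed for RT1-A1 and RT1-A2, both higher in BN, and for RT1-CE5, higher in ACI (assembly GRCr8, 5′ to 3′). Capitals mark matches on either strand to the NF-kB consensus, to the STAT motif TTCNNNGAA and to the core of the interferon-stimulated response element (ISRE).
RT1-A1 (chr20:4906959-4907208, plus strand): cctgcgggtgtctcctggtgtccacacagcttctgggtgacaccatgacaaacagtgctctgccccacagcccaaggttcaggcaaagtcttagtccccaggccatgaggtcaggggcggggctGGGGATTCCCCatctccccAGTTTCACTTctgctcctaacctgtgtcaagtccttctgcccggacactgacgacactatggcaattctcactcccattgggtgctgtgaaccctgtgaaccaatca
RT1-A2 (chr20:4872621-4872870, plus strand): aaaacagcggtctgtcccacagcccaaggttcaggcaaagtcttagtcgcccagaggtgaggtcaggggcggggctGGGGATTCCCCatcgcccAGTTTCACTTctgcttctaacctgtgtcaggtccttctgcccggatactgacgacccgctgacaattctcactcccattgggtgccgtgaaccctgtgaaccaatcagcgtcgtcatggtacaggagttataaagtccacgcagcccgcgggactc
RT1-CE5 (chr20:3484091-3484340, minus strand): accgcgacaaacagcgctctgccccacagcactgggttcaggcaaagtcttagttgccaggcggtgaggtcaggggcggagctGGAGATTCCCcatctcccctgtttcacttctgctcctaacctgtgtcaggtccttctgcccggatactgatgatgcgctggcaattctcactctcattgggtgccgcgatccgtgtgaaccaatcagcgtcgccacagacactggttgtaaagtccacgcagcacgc
Over their overlap these windows were 90.6% identical between RT1-A1 and RT1-A2, 88% between RT1-A1 and RT1-CE5 and 86.5% between RT1-A2 and RT1-CE5. Of the 36 RT1 genes 33 matched a promoter, and the NF-kB consensus was found in 10 of them (30.3%) against 8.89% of the 9575 tested genes with a promoter, and the ISRE core in 12 (36.4%) against 1.51%. A match is a description of the letters of the reference assembly only, and no sequence of the ACI rats was examined.

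RT1-A1, a classical class I heavy chain, was at 331, 315, 200.5, 385, 2515 and 2401 CPM. Both BN libraries lay far above all 4 ACI libraries, with or without E2. The log2 fold change, ACI minus BN, was -2.998 (SE 0.42, adjusted p = 0.713), a 7.99-fold difference, and -2.88 without ACI E2 1. RT1-A2, the neighbouring classical gene, was at 575, 470, 370, 692, 1439 and 966 CPM. Its log2 fold change of -1.17 (SE 0.42) was smaller, and again no ACI library reached either BN library. RT1-S3, a non-classical class I gene, was at 127, 62.8, 252, 242, 325 and 420 CPM, with a log2 fold change of -1.30 (SE 0.44).

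Class I genes of the RT1-CE group showed the opposite order. RT1-CE5 was at 254, 198, 171, 412, 21.8 and 16.3 CPM, a log2 fold change of 3.75 (SE 0.59, adjusted p = 0.713). RT1-CE2 was at 131, 104, 95.5, 189, 11 and 7.40 CPM, and its log2 fold change was 3.82 (SE 0.60, adjusted p = 0.713). Each ACI library thus held many times the level of both BN libraries. RT1-CE4 was at 131, 104, 77.2, 159, 7.91 and 2.94 CPM and had a log2 fold change of 4.54 (SE 0.71, adjusted p = 0.713). RT1-CE6, which RefSeq lists as a non-coding RNA gene, was at 68.1, 66.8, 30.1, 71.8, 0.474 and 0.368 CPM, the widest gap of the group at a log2 fold change of 7.11 (SE 0.91, adjusted p = 0.713). RT1-CE3 was at 44.8, 38.3, 32.1, 59.0, 0.663 and 2.15 CPM, a log2 fold change of 5.10 (SE 0.99, adjusted p = 0.843). RT1-CE15 and RT1-O1 were also higher in all 4 ACI libraries, at 108 to 212 against 57.5 and 76.1 CPM and at 24.1 to 31.0 against 3.22 and 3.20 CPM.

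**Figure D1:**
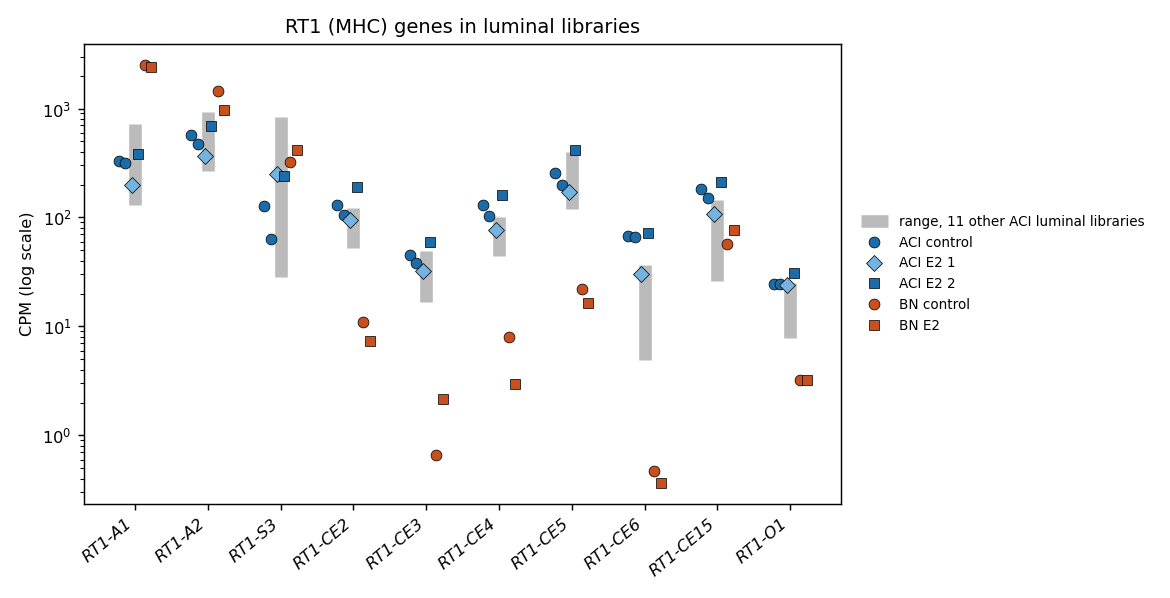
CPM on a log scale of the 10 RT1 genes with an unadjusted p under 0.05, 1 point per luminal library of the E2 experiment, ACI in blue and BN in orange, with grey bars for the range over 11 other ACI luminal libraries. RT1-A1 and RT1-A2 sit higher in both BN libraries, and the RT1-CE genes and RT1-O1 sit higher in all 4 ACI libraries.

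Summing the copies changed the picture. The 3 RT1-A genes together came to 1026, 881, 674, 1217, 4057 and 3430 CPM, and BN was 3.94-fold higher. The 12 tested RT1-CE genes together came to 1502, 1351, 901, 1743, 648 and 654 CPM, and ACI was 2.11-fold higher. The 15 genes as a whole came to 2527, 2232, 1575, 2960, 4705 and 4085 CPM, a 1.89-fold higher sum in BN. For each of the sums the exact permutation test gave p = 0.0667 (two-sided, 15 arrangements of 4 and 2 libraries), the smallest p this design allows. These genes share long stretches of sequence, and rn6 is the genome of a BN rat. Reads aligning to more than 1 place were left out of the counts. Over the whole genome their tally was 35.2% to 40.4% of counts and tallies together in ACI and 44.7% and 45.1% in BN. Whether the tally holds reads or alignments is not given. Expression of a gene and the assignment of reads between copies and alleles can therefore not be told apart here. The part of the unequal tally in these sums was not tested.

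The other 26 tested RT1 genes had an unadjusted p above 0.05. They included the class II genes, which antigen-presenting cells use. RT1-Da was at 0.979 to 44.0 CPM in ACI and 24.2 and 0.473 CPM in BN, RT1-Db1 at 1.52 to 35.6 against 36.7 and 6.09, and RT1-Ba at 0 to 17.4 against 11.4 and 9.92, so the strains overlapped in each. RT1-CE10 was higher in all ACI libraries (132 to 277 against 123 and 107 CPM) with a log2 fold change of 0.76 (SE 0.44, unadjusted p above 0.05). RT1-CE16 overlapped between strains, at 217 to 461 against 385 and 406 CPM.

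The same 10 RT1 genes had the same sign in basal cells sorted from the same rats, and 6 of them had a p under 0.05 there, against 1.15% of all genes in basal cells (edgeR, fit of 12 libraries). RT1-A1 was at 208, 119, 157, 206, 616 and 1493 CPM there, a log2 difference of -2.51 (SE 0.43). RT1-CE5 had 1.85 (SE 0.56) and RT1-CE6 3.03 (SE 1.35) in basal cells. The luminal fold changes of RT1-CE4, RT1-CE5 and RT1-CE6 exceeded the basal ones, 1.42 (SE 0.63) for RT1-CE4, at an unadjusted p under 0.05 for the interaction of strain and cell type (adjusted p = 1), which 1.87% of all genes passed. Basal and luminal libraries share their rats and are not independent of each other.

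A further view came from 11 luminal libraries of wild-type rats of the Cdkn1b experiments, which are ACI and 4, 6 or 9 weeks old by label, and include 4 libraries of progenitor gates. By the study's methods that line was founded in outbred Sprague-Dawley rats and crossed onto ACI, and sorted rats came from an early and a later generation, so Sprague-Dawley segments, RT1 among them, may remain. They were not used to choose any gene, but differ in age, sort and batch, so they are given as levels on a joint scaling, without a test. In all 11, RT1-A1 (131 to 727 CPM) and RT1-A2 (268 to 939 CPM) stayed below both BN libraries, and RT1-CE2 to RT1-CE6 and RT1-O1 stayed above them. In RT1-CE5, for example, they ranged from 120 to 400 CPM. RT1-S3 (28.2 to 827 CPM) and RT1-CE15 (26.1 to 146 CPM) overlapped with BN. Over all genes, the 11 libraries lay above both BN libraries in 7.19% and below both in 5.54%. The RT1 genes were chosen on the same 2 BN libraries, so genes chosen alike are the nearer background. Among genes apart and with p under 0.05, the 11 libraries lay on the ACI side in 48.5% higher in ACI and 43.9% higher in BN. For RT1 genes this held in 6 of 7 and 2 of 3.

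Other genes of class I presentation differed less. Of 19 tested members outside RT1, none was higher in ACI at p under 0.05 and 1 (5.26%) was higher in BN, and their median log2 fold change was -0.37. That gene was Tapbp, encoding tapasin, which loads peptides onto class I molecules, at 168, 87.6, 115, 122, 249 and 298 CPM (log2 fold change -1.15, SE 0.39). In basal cells it had -1.06 (SE 0.39). The shared class I light chain B2m was at 768 to 1352 CPM in ACI and 1075 and 2044 in BN. None of 29 tested interferon-stimulated genes differed at p under 0.05 or was free of overlap, and their median log2 fold change was -0.39.

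Genes of mucosal and innate defence leaned to BN. Of 18 tested members of that list 3 (16.7%) were higher in BN and 1 (5.56%) in ACI at p under 0.05, and 9 did not overlap with BN higher, against 6.79% of all genes. The median log2 fold change was -1.97 with all libraries and -1.07 without ACI E2 1. The summed level of the list was 22644, 7087, 3922, 23014, 42290 and 148345 CPM, most of it from Tf, the iron carrier transferrin, which was at 18086, 5548, 2946, 20897, 34327 and 127867 CPM (log2 fold change -2.59, SE 1.15, unadjusted p above 0.05).

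Lcn2 encodes lipocalin 2, which withholds iron from bacteria by binding their siderophores. It was at 46.9, 24.5, 66.8, 30.8, 1015 and 3760 CPM. Both BN libraries lay more than 10 times above the highest ACI library, and the fold change of -5.61 on the log2 scale (SE 0.60, adjusted p = 0.528) had the lowest p of all genes. It was -5.82 without ACI E2 1. Its log2 ratio was -4.81 among control and -6.25 among E2 libraries. In the 11 other ACI luminal libraries Lcn2 ranged from 26.6 to 2181 CPM with a median of 59.8, so the highest of them exceeded the BN control.

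Cfb, complement factor B, was at 673, 192, 127, 320.3, 1871 and 2737 CPM, a log2 fold change of -2.93 (SE 0.69). Lbp, which binds bacterial lipopolysaccharide, was at 1877, 393, 54.4, 407, 3037 and 10037 CPM (log2 fold change -3.94, SE 1.39), and -2.93 without ACI E2 1, where its unadjusted p was above 0.05. Within ACI both genes were highest in control 1, and no ACI library reached BN. The 11 other ACI libraries spanned 194 to 3916 CPM for Cfb and 235 to 9734 CPM for Lbp, so the highest of them lay above both BN libraries for Cfb and between them for Lbp. Wfdc2, a secreted protein of the whey acidic protein family, went the other way at 233, 238, 96.6, 126, 23.1 and 62.7 CPM (log2 fold change 1.90, SE 0.69), and all 11 other ACI libraries (136 to 435 CPM) lay above BN.

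The upstream 250 bases of Lcn2 and of Cxcl1, a neutrophil-attracting chemokine that was also higher in BN, are shown because both are known targets of NF-kB (GRCr8, 5′ to 3′, with matches to its consensus, the STAT motif or the ISRE core on either strand in capitals).
Lcn2 (chr3:36081781-36082030, minus strand): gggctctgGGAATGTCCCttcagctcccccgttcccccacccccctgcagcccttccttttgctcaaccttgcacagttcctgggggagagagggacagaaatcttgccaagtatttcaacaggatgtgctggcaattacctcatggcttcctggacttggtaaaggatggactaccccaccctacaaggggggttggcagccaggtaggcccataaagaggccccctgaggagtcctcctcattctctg
Cxcl1 (chr14:17479322-17479571, minus strand): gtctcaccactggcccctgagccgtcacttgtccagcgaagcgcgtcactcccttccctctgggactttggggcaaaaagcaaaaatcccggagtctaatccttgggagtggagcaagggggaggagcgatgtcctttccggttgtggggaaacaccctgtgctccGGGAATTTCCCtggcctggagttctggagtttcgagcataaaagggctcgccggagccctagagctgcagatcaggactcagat
Of the 174 named-gene candidates higher in BN (p under 0.05, strains apart, mean log2 CPM above 2) 132 had a promoter in the RefSeq table and 18 of these (13.6%) held an NF-kB match, against 16 of 161 (9.94%) among those higher in ACI and 8.89% of tested genes. The STAT motif TTCNNNGAA was found in 5 (3.79%) and 8 (4.97%) of them, against 6.12% of tested genes. The ISRE core was found in 4 (3.03%) and 5 (3.11%), against 1.51%. These are shares of letters in one window, with no test.

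Luminal progenitor genes held further calls toward BN. Of 13 tested luminal progenitor genes 4 (30.8%) were higher in BN and none in ACI at p under 0.05, with a median log2 fold change of -1.02, whereas without ACI E2 1 there were 2 in BN and 1 in ACI. Cd14, the lipopolysaccharide co-receptor, was at 223, 171, 68.3, 210.1, 605 and 779 CPM (log2 fold change -2.07, SE 0.52). Cxcl1 was at 9843, 2692, 4322, 1586, 24783 and 16960 CPM (log2 fold change -2.26, SE 0.77). For both genes the BN pair lay above all 4 ACI libraries, and for Cxcl1 above the 11 other ACI libraries too (3360 to 7775 CPM). Ehf, an epithelial ETS factor, was at 229 to 595 CPM in ACI against 1008 and 885 CPM (log2 fold change -1.20, SE 0.47), and Aldh1a3, which makes retinoic acid, at 3.80 to 49.2 against 62.2 and 58.6 CPM (log2 fold change -2.25, SE 0.91). Without ACI E2 1 neither was under 0.05, and in the 11 other ACI libraries Aldh1a3 reached 778 CPM. Kit, the receptor that marks progenitors, overlapped at 7.19 to 79.8 against 54.0 and 170.2 CPM. Elf5, the factor of the alveolar lineage, was at 1.03 to 15.3 against 13.5 and 30.9 CPM, with a log2 fold change of -1.78 (SE 1.35, unadjusted p above 0.05). In 3 of the 13 the fold change was positive, with the strains overlapping: Bmpr1b at 3.85, Lpo at 2.34 and Krt15 at 0.70 on the log2 scale.

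**Figure D2:**
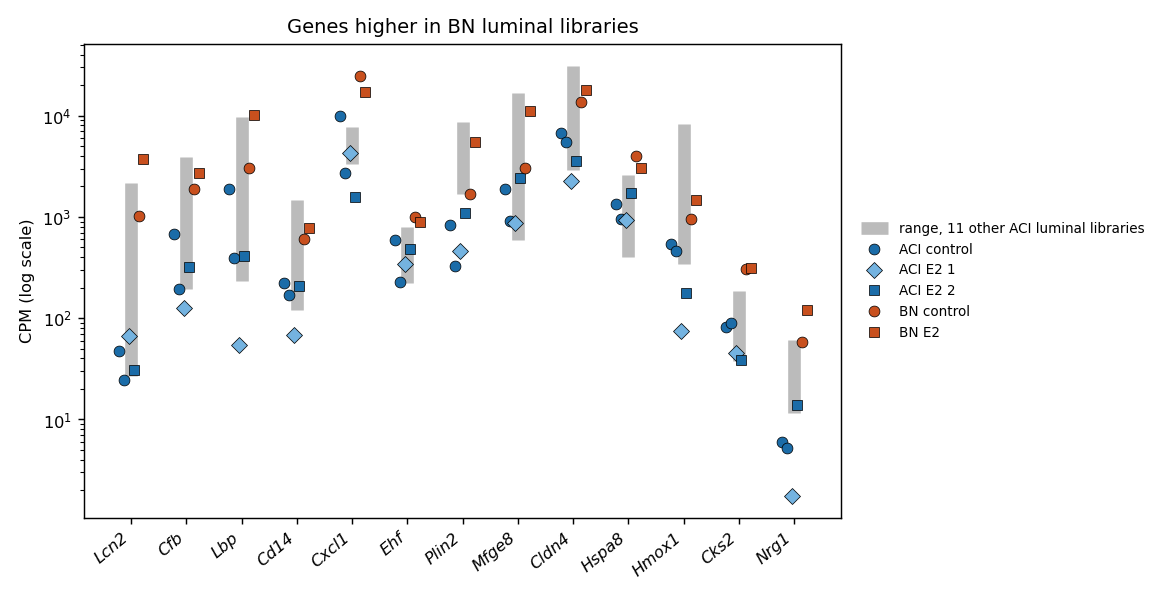
CPM on a log scale of 13 genes that were higher in BN luminal cells at an unadjusted p under 0.05, 1 point per luminal library, with grey bars for the range over 11 other ACI luminal libraries. The orange BN points top all blue ACI points in each gene, while the grey bars (on a joint scaling) reach the BN levels in Lcn2, Cfb, Lbp, Cd14, Plin2, Mfge8, Cldn4 and Hmox1. The points are scaled over the 6 libraries alone, and on the joint scaling Nrg1 stayed below both BN libraries in all 11.

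Hormone-sensing genes leaned to ACI. Of 20 tested members 5 (25%) had a p under 0.05, all higher in ACI, against 2.29% of all genes, and 17 of 20 had a positive fold change. The median log2 fold change was 2.20, or 1.91 with genes at 0 in BN set to their lower bound, and 2.76 without ACI E2 1. Without that library 6 members had p under 0.05, all higher in ACI. The summed level of the list overlapped between strains, at 17046, 18216, 5103, 9443, 9496 and 7682 CPM. Among the 3 members with a negative fold change, Prlr, the prolactin receptor, was at 146, 55.9, 0, 4.38, 0 and 16.7 CPM. S100a6, a calcium-binding protein, was at 540, 396, 175, 190.3, 99.5 and 17.1 CPM (log2 fold change 2.78, SE 0.49, adjusted p = 0.713). In basal cells it had -0.41 (SE 0.56), and the interaction with cell type had an unadjusted p under 0.05 (adjusted p = 1).

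Tbx3, a transcription factor needed for duct formation, was at 477, 281, 143, 99.8, 71.8 and 32.5 CPM (log2 fold change 2.15, SE 0.46). Gata3, the factor that maintains luminal fate, was at 290.1, 197, 192, 136, 43.7 and 83.0 CPM (log2 fold change 1.67, SE 0.53). In both genes each ACI library exceeded both BN libraries, and ACI controls were higher than ACI E2 libraries in Tbx3. For Gata3 the 11 other ACI libraries (126 to 623 CPM) also stayed above BN, and for Tbx3 (21.2 to 153 CPM) they did not. Areg, the growth factor that relays estrogen signals, was at 284, 223, 136, 30.3, 16.8 and 32.9 CPM, so that ACI E2 2 fell between the BN libraries (log2 fold change 2.42, SE 0.93). Stc2, a secreted glycoprotein induced by estrogen, was at 43.7, 8.53, 8.49, 0.515, 0 and 0.0525 CPM (log2 fold change 8.15, SE 2.92). Areg and Stc2 passed 0.05 only with ACI E2 1 among the libraries and were above it without that library.

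The receptors themselves did not separate the strains at p under 0.05. Pgr, the progesterone receptor, was at 149, 67.0, 29.0, 12.3, 0 and 3.83 CPM (log2 fold change 4.41, SE 2.29, unadjusted p above 0.05), with all ACI above BN. Esr1, the estrogen receptor, was at 29.4, 18.9, 18.3, 1.03, 0 and 4.25 CPM (log2 fold change 3.15, SE 2.84, unadjusted p above 0.05). Foxa1, which opens chromatin for the estrogen receptor, was at 293, 197, 70.2, 10.2, 5.59 and 50.4 CPM. In all 3 the highest values were those of the ACI controls. Among the E2 libraries, BN lay between the 2 ACI libraries in Esr1 and Foxa1 and below both in Pgr. Of 21 tested estrogen response genes 2 (9.52%) were higher in ACI and none in BN at p under 0.05, with a median log2 fold change of 0.63, and of 13 progesterone response genes 1 was higher in each strain. Those calls were Areg and Stc2, and Areg again with Ptgs2, so the lists overlap. Without ACI E2 1 the progesterone list kept only 1 call, higher in BN.

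**Figure D3:**
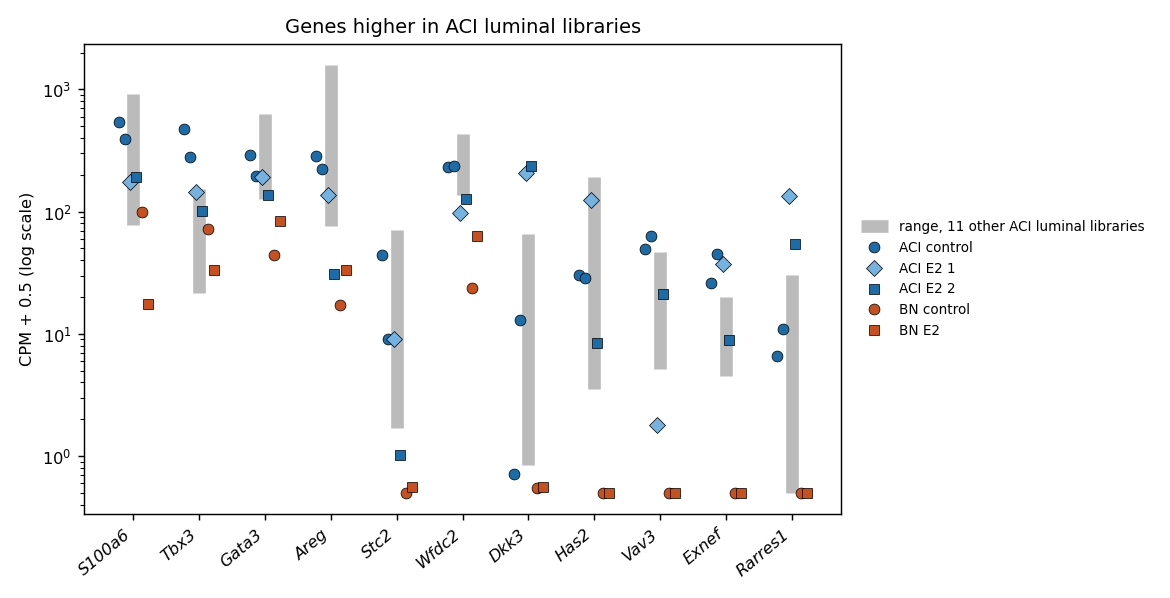
CPM + 0.5 on a log scale of 11 genes that were higher in ACI luminal cells at an unadjusted p under 0.05, 1 point per luminal library, with grey bars for the range over 11 other ACI luminal libraries. All ACI points exceed the BN points except for ACI E2 2 in Areg, and both BN libraries are at 0 in Has2, Vav3, Exnef and Rarres1.

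Milk genes did not move together. Of 28 tested members 4 (14.3%) were higher in BN and 1 (3.57%) in ACI at p under 0.05, and the median log2 fold change was -0.74, or 0.26 without ACI E2 1. The 4 higher in BN act in lipid secretion, at the cell surface or in transport. Plin2, which coats lipid droplets, was at 831, 324, 457, 1084, 1672 and 5469 CPM (log2 fold change -2.23, SE 0.62). Mfge8, of the milk fat globule membrane, was at 1895, 916, 880, 2437, 3026 and 10984 CPM (log2 fold change -1.99, SE 0.69). Both were highest in the E2-treated BN library, and the 11 other ACI libraries reached the BN levels in both (up to 8693 and 16809 CPM). In basal cells Mfge8 had 0.62 (SE 0.54), and the interaction with cell type was under 0.05 unadjusted (adjusted p = 1). Slc34a2, a phosphate transporter, was at 15.6 to 153 against 130 and 345 CPM (log2 fold change -2.08, SE 0.55), and the membrane mucin Muc15 at 25.8 to 167 against 187 and 200.2 CPM (log2 fold change -1.38, SE 0.56). Without ACI E2 1 Muc15 was not under 0.05, and the list held 3 genes in each direction. Fabp3, a fatty acid carrier, was higher in ACI at 1.63, 6.73, 155, 712, 0 and 69.0 CPM (log2 fold change 3.85, SE 1.4), where each ACI library lay above the BN library of its own treatment in the E2 and the control pair alike.

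The caseins did not separate the strains. Csn2, beta-casein, was at 260, 814, 4117, 50331, 38.7 and 31937 CPM, with a strain log2 fold change of 1.27 (SE 1.56, unadjusted p above 0.05). Csn3, kappa-casein, was at 5417, 1854, 329, 9713, 1377 and 22780 CPM (-0.79, SE 1.54, unadjusted p above 0.05). The E2-treated ACI libraries thus differed from each other more than the strains did. The summed milk list was 14038, 7471, 10108, 88655, 8599 and 99703 CPM.

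The 14 tested luminal markers summed to 10407 to 30337 CPM in ACI and 31048 and 33530 CPM in BN. Among them, Cldn4, a tight junction protein, was higher in BN at 6676, 5493, 2247, 3576, 13741 and 17811 CPM (log2 fold change -1.95, SE 0.63). Krt18 leaned to ACI at 4704, 5723, 1429, 3228, 1936 and 1059 CPM (log2 fold change 1.28, SE 0.56, unadjusted p above 0.05). Without ACI E2 1 Krt18 was under 0.05, and 3 luminal markers were higher in ACI and 1 in BN at that threshold. Krt8, its partner keratin, had -0.17 (SE 0.62, unadjusted p above 0.05). The basal marker and ErbB ligand Nrg1 was at 5.93, 5.27, 1.75, 13.9, 58.2 and 121 CPM (log2 fold change -3.67, SE 0.87), the only 1 of 18 tested basal genes with p under 0.05. Myoepithelial Tagln was at 1064 CPM in the BN control and 11.4 in BN E2, against 12 to 220 in ACI, and Krt14 was at 14.7 to 291 CPM in ACI against 59.9 and 84.1. The part of sorted neighbouring cells in these values was not tested.

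Stress and early response genes were mostly lower in ACI, and 4 of them had p under 0.05. Of 18 heat shock genes 17 had a negative fold change and 8 did not overlap, 1 of them with p under 0.05, and the median log2 fold change was -0.76. Hspa8, the constitutive chaperone, was at 1342, 949, 922, 1726, 3963 and 3046 CPM (log2 fold change -1.51, SE 0.47). The stress-induced Hspa1a was at 1117 to 4967 CPM in ACI against 6815 and 6770 in BN (log2 fold change -1.46, SE 0.69, unadjusted p above 0.05). Of 20 immediate early genes 3 (15%) were higher in BN and none in ACI at p under 0.05, with a median of -0.94. These were Fosl1, at 246 to 749 against 1184 and 853 CPM (log2 fold change -1.25, SE 0.39), Egr2 and Klf4. Fos, the first of these factors to be named, was at 2993 to 30389 CPM in ACI against 29954 and 7213, with no separation.

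Cell cycle genes gave a mixed pattern. Of 48 G2 and M phase genes 2 (4.17%) were higher in ACI and 1 (2.08%) in BN, and of 35 S phase genes 1 (2.86%) and 2 (5.71%). Leaving out ACI E2 1 gave counts of 5 and 1 for G2 and M phase and 3 and 3 for S phase. Cks2, a cyclin-dependent kinase subunit, was at 81.5, 90.0, 45.3, 38.6, 307 and 312 CPM (log2 fold change -2.40, SE 0.40, adjusted p = 0.713), above all ACI libraries including the 11 others (38.1 to 185 CPM). Pcna, the replication clamp, was at 126 to 315 against 449 and 403 CPM (log2 fold change -1.19, SE 0.38), and again none of the 11 others (100.2 to 295 CPM) reached BN. Nusap1, a spindle protein, was higher in ACI at 2.29, 8.78, 35.5, 30.2, 0 and 0.735 CPM (log2 fold change 6.58, SE 2.01). Cenpa, the centromeric histone, and Rad51ap1, of DNA repair, were at 0 in both BN libraries and at up to 5.67 and 9.42 CPM in ACI, and were at least 41.6-fold and 70.2-fold higher in ACI against a floor of 3 counts over the BN libraries.

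Cdkn1b, which encodes the cell cycle inhibitor p27, was at 15.9, 9.57, 11.7, 14.9, 9.47 and 12.3 CPM. The strains overlapped, with a log2 fold change of 0.27 (SE 1.12, unadjusted p above 0.05), so that an interval of 2 SE runs well beyond a 2-fold difference in either direction. Cdkn1c and Cdkn1a, inhibitors of the same family, did not overlap. Cdkn1c was at 25.7 to 54.8 CPM in ACI against 8.00 and 13.3 (log2 fold change 1.73, SE 0.81, unadjusted p above 0.05), and Cdkn1a at 29.3 to 56.9 against 84.9 and 66.5 CPM (log2 fold change -1.01, SE 0.49, unadjusted p above 0.05). Neither was under 0.05 with all libraries, and Cdkn1c was without ACI E2 1.

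Metabolic and signalling lists held few calls. Of 44 tested genes of glutathione and xenobiotic metabolism 4 (9.09%) were higher in ACI and 2 (4.55%) in BN, with a median of -0.08. Without ACI E2 1 the counts were 1 and 2, as Akr1c14, Cbr3 and Gstt3 were no longer under 0.05. Hmox1, which degrades heme, was at 537, 466, 75.3, 176, 961 and 1462 CPM (log2 fold change -2.44, SE 0.70), and at -1.82 in basal cells (SE 0.57). Of 33 Wnt pathway genes only Dkk3, a secreted modulator, had p under 0.05, at 0.218, 12.4, 207, 234, 0.0474 and 0.0525 CPM (log2 fold change 9.99, SE 2.46). Both E2-treated ACI libraries carried most of it. None of 10 tested Hedgehog genes passed with all libraries, and the median of 2.49 rested on genes near 0 in BN and was 0.84 without ACI E2 1. Without that library 1 Hedgehog gene, Gli3, was under 0.05 and higher in ACI, and the Wnt list held 2 such genes.

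The largest fitted differences were set by absence in one strain. All 12 leading genes higher in ACI had no count in either BN luminal library, as had 1347 (10.6%) of all genes tested, whereas 100 genes (0.789%) had none in ACI, although absence from 2 libraries is reached more easily than absence from 4. Against a floor of 3 counts over the BN libraries, Has2, a hyaluronan synthase, was at least 633-fold higher in ACI, at 29.8, 28.3, 123 and 7.91 CPM. Rarres1, a retinoid-responsive gene, was at least 682-fold higher, at 6.04, 10.5, 134 and 53.7 CPM, and Vav3, a guanine nucleotide exchange factor, at least 446-fold, at 49.0, 62.3, 1.29 and 20.7 CPM. These bounds without ACI E2 1 were 295-fold, 314-fold and 589-fold. The others were Exnef, Trerf1, Adra2a, Aldh1a7, Slc36a4, F2r, Npr1, Megf9 and Lrrc49. In 8 of the 12 all 11 other ACI libraries also held counts. In 11 of the 12 a BN basal library held more than 1 CPM, for Has2 19.4 and 47.1 CPM, so these genes were counted in BN cells of the same experiment.

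Of the 12 leading genes higher in BN, 2 had no count in any ACI library. Ptgs2, the inducible cyclooxygenase, was at 0 in all 4 ACI libraries and at 14.3 and 45.5 CPM in BN, at least 886-fold higher against the floor over the ACI libraries. Odam, an odontogenic protein also made by secretory epithelia, was at 6.69, 0.0836, 0, 14.6, 299 and 647 CPM (log2 fold change -6.46, SE 1.95). Stac2 was at 0 to 5.50 against 111 and 43.5 CPM (log2 fold change -5.26, SE 1.46), and Ephx2, a soluble epoxide hydrolase, at 0 to 2.36 against 33.3 and 28.6 CPM (log2 fold change -4.69, SE 1.82). The 11 other ACI libraries stayed below both BN libraries in 5 of the 12, namely Ptgs2, Cdh16, Odam, Traf1 and Ephx2. Cdh16 and Crisp1 were not under 0.05 without ACI E2 1. Crisp1, by contrast, reached 2539 CPM in 1 of them against 19.5 and 6.30 CPM in BN. Lcn2, Bpifb1, Vstm4, Prss12 and Slfn4 complete the 12.

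Over all genes whose strains did not overlap, the 11 other ACI libraries lay on the ACI side of both BN libraries in 260 of 855 (30.4%) higher in ACI and 240 of 860 (27.9%) higher in BN. With p under 0.05 as well, these shares were 111 of 229 (48.5%) and 83 of 189 (43.9%). Each of these shares rests on the same 2 BN libraries.

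**Figure D4:**
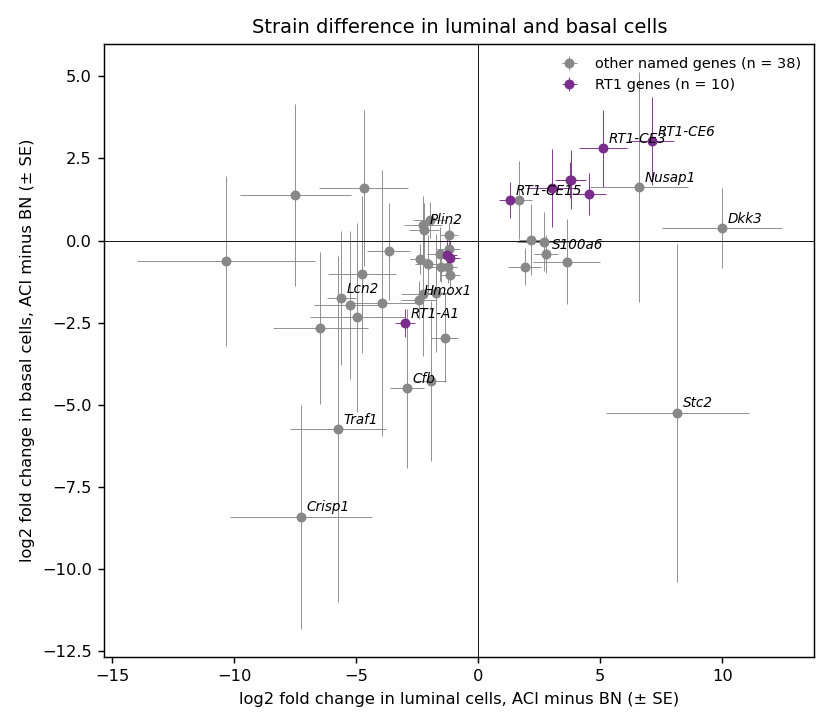
Log2 fold change, ACI minus BN, in luminal cells (x axis) and basal cells (y axis) of the same rats, with standard errors, for named genes with an unadjusted luminal p under 0.05, strains apart and counts in both strains. All 10 RT1 genes, in purple, share their sign between cell types, as do 27 of the 38 other genes, whose basal errors are wide. The share over all genes was not counted.

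Outside RT1, basal cells seldom showed the same difference with a p of their own. Of 38 named genes with counts in both strains, 27 had the same sign in basal cells and 3 also a basal p under 0.05, which 153 of 13335 genes (1.15%) had. The share of all genes with the same sign in both cell types was not counted. The sign counts here and for RT1 therefore have no background, and both cell types come from the same rats. No gene passed an adjusted p for the interaction of strain and cell type, and 249 (1.87%) had an unadjusted p under 0.05. Treatment and strain interacted in 724 genes (5.71%) at that unadjusted p and in none after adjustment, with 1 BN library in each arm.

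**Figure D5:**
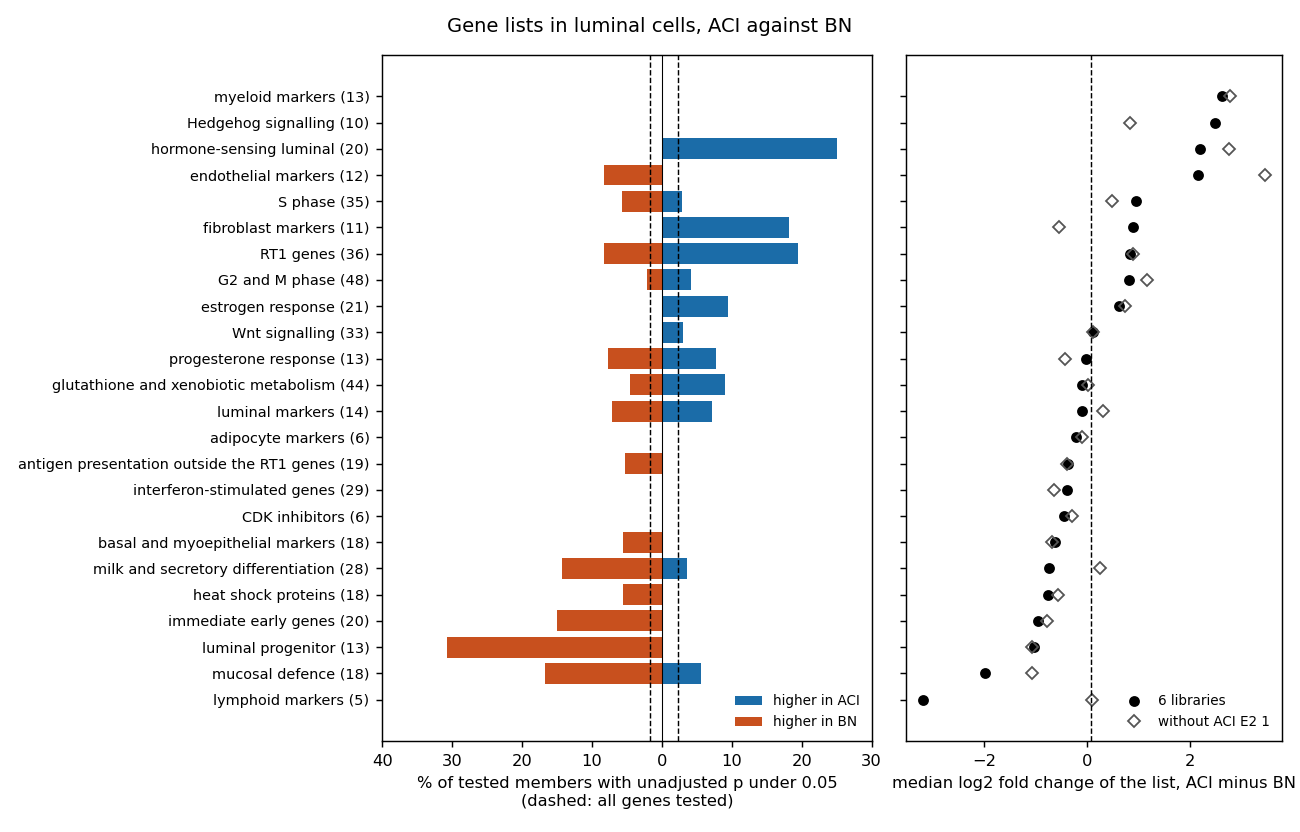
Left, percent of the tested members of each gene list (number in brackets) with an unadjusted p under 0.05, higher in ACI to the right and higher in BN to the left, with dashed lines at 2.29% and 1.74% for all genes. Right, median log2 fold change of each list with all 6 libraries and without ACI E2 1, showing hormone-sensing genes at 2.20 and mucosal defence genes at -1.97.

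Marker lists of other cell types held few calls. The fibroblast list stood apart in ACI E2 1 as given above, and the adipocyte list summed to 669 CPM there against 11.5 to 38.1 in the other ACI libraries and 116 and 50.6 in BN. None of 5 tested lymphoid, 13 myeloid and 6 adipocyte genes had p under 0.05, and the myeloid list summed to 14.9 to 85.9 CPM in ACI and 15.7 and 20.0 CPM in BN. Of 12 endothelial genes Flt1 did, at 29.6 to 89.6 CPM in ACI against 116 and 227 CPM. Flt1 ran against its list, where 10 genes had a positive and 2 a negative fold change. The endothelial median log2 fold change was 2.17, or 3.47 without ACI E2 1, and 3 of the 12 genes were at 0 in both BN libraries. Of 11 fibroblast genes Fap and Pdgfrb had p under 0.05, both with overlapping strains and neither under 0.05 without ACI E2 1. The fibroblast median was 0.90, or -0.53 without that library. The summed levels of the lymphoid list were 3.37 to 33.6 CPM in ACI and 7.91 and 3.52 in BN, with Cd3g at 0 in both BN libraries. The lymphoid median log2 fold change was -3.18, or 0.11 without ACI E2 1.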

How the data were processed

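Gene counts of 6 luminal libraries were compared, with 6 basal and 11 wild-type luminal libraries labelled ACI beside them. According to the labels and the methods, the authors made low-input SMARTer libraries, sequenced single-end reads on a NextSeq500, aligned them to rn6 with STAR 2.5.1b and counted them with htseq-count on refGene. The deposited values are raw counts. Tallies of reads not assigned to a gene (56.8% to 74.7% of counts and tallies together) were left out.

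Groups came from the labels. Counts were analysed in R 4.3.3 with edgeR 4.0.16 (filterByExpr by strain and treatment, TMM, quasi-likelihood test, Benjamini-Hochberg adjustment, threshold 0.05), with DESeq2 1.42.0 and limma 3.58.1 as alternatives, and the scripts were tested on simulated data. Genes at 0 in a strain were set against a floor of 3 counts over its libraries, which covers counting error only. Ratios within a treatment use CPM + 0.5. The labels do not say that libraries are separate animals beyond the rat numbers in the titles, so p-values measure the spread between these libraries. Named genes are, per direction, the 12 with the largest fold change among those with unadjusted p under 0.05, mean log2 CPM above 2 and strains apart (without LOC and RGD names), every tested RT1 gene, Cdkn1b, and members of 24 gene lists with p under 0.05 and strains apart or otherwise of lowest p. Genes outside this rule (such as Pgr, Esr1, Tf and the caseins) were added for their role. Members and lists were chosen with earlier results of these data known. Promoters are from RefSeq, GRCr8.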

Additional observations from a re-analysis of the deposited data

How the results depend on the processing

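For the strain difference in luminal cells, the count of 0 genes at an adjusted p under 0.05 (511 unadjusted) became 1 without a filter beyond a count above 0 and 1 with limma voom, in both cases Lcn2, and 399 with DESeq2, which gave 1427 unadjusted. It stayed at 0 when any 1 library was left out, where the unadjusted count ran from 224 (without ACI control 2) to 837 (without ACI E2 1). The legacy quasi-likelihood alternative is the default of this version and gave the same values; the newer method and a filter by strain alone, both added after seeing the data, gave 661 and 527 for the strain difference in luminal cells, unadjusted. The count of 0 for the strain by treatment interaction in luminal cells became 450 with DESeq2 and 0 to 2605 without 1 ACI library, the last without ACI E2 2 (7 without ACI E2 1, 4 without ACI control 2), and the strain by cell type interaction count of 0 became 277 with DESeq2. With the rat number of the title as a replicate block, that interaction stayed at 0 adjusted and had 233 unadjusted calls against 249. The 2 strain groups share no rats, so no pairing exists between ACI and BN.

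Of 69 genes followed, the fold change kept its direction under each alternative that could be computed. Nearly all of them were chosen because the strains did not overlap in these same libraries, so their direction could hardly reverse. The kept direction therefore does not measure robustness. With DESeq2 48 of the 69 passed an adjusted 0.05. List medians kept their sign for hormone-sensing (1.16 to 3.64), mucosal defence (-3.25 to -0.323), luminal progenitor, heat shock, immediate early and RT1 genes, and changed it for milk genes (-1.26 to 1.03). The common dispersion was 1.44, or 0.803 without ACI E2 1. Each comparison rests on 2 BN libraries, 1 per treatment.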
